A study of Papilio machaon with 10 samples.

Results

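Gene expression in the whole body of 1 female pupa of the swallowtail butterfly Papilio machaon was set against that of 1 male pupa. Both individuals belong to a developmental series of 10 RNA-seq libraries: 1 of eggs, 1 of each larval instar (L1 to L5), and 1 of either sex for both the pupa and the adult. Expression was deposited as RPKM, a read number scaled to the length of the gene and to the size of the library, for 15285 genes. Genes that averaged 1 RPKM or more over both pupae, 13229 in number, were compared by the difference of log2(RPKM + 1), female minus male. A gene was placed in a list where this difference reached 2 in either direction, which is 4-fold on that scale, and the lists were then followed in the 6 libraries of egg and larvae, called the early libraries here. With 1 individual per sex there is no spread between replicates, no test was possible, and sex, individual and pupal age cannot be told apart.

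In the pupa of a butterfly the larval tissues are broken down or remodelled and the wings, legs, muscles and cuticle of the adult are built. The gonads grow at the same time: eggs form in the ovarioles of the female and sperm mature in the testis of the male. Moths and butterflies have heterogametic females (ZW) and homogametic males (ZZ), so a gene on the W chromosome can be present in females alone. Genes of the cuticle are switched on and off with each moult, in larvae as well as in pupae. A whole-body library mixes all of these tissues, and a larger organ cannot be told apart from more RNA per cell.

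The labels give stage and sex and name no strain, treatment or age. The study's methods state that eggs, L1 and L2 were pooled from several animals and that each later library came from a single individual. Larvae were fed fennel or carrot. The sex of the eggs and larvae is not given. The reads on genes, worked out from the steps between RPKM values, numbered 26999933 in the female pupa and 32077629 in the male pupa, and 23239554 to 35985078 over all 10 libraries. Genes carry locus tags only, and 0 of the 15285 tags were found in the reference gene table used here. Marker genes of ovary, testis or cuticle could therefore not be looked up, the sex labels could not be checked against a named gene, and 2 tags are given for each direction.

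At 4-fold, many more genes were higher in the male pupa than in the female pupa. Of the 13229 genes compared, 479 (3.62%) were at least 4-fold higher in the female pupa and 1231 (9.31%) at least 4-fold higher in the male pupa. The male side also reached further out. A difference of at least 64-fold was seen in 11 genes on the female side and in 151 on the male side, and at 2-fold the lists held 1939 and 2466 genes. The centre of the distribution leaned the other way: the median difference over all genes was 0.12 in favour of the female pupa, and the 1st and 99th percentiles were -6.33 and 3.35. Scaling to a common 75th percentile moved this median to -0.04 and scaling to a common sum of RPKM moved it to 0.30, while the male-higher list stayed the larger one under both. The lists then held 394 female-higher and 1277 male-higher genes with the first scaling and 606 female-higher and 1207 male-higher genes with the second. Just inside the threshold lay a gene with 85.0 RPKM in the female pupa and 20.4 RPKM in the male pupa, and just outside it one with 32.5 and 7.38 RPKM. On the male side these were a gene at 0 RPKM in the female pupa and 3.01 RPKM in the male pupa, and one at 7.71 and 33.8 RPKM.

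**Figure D1:**
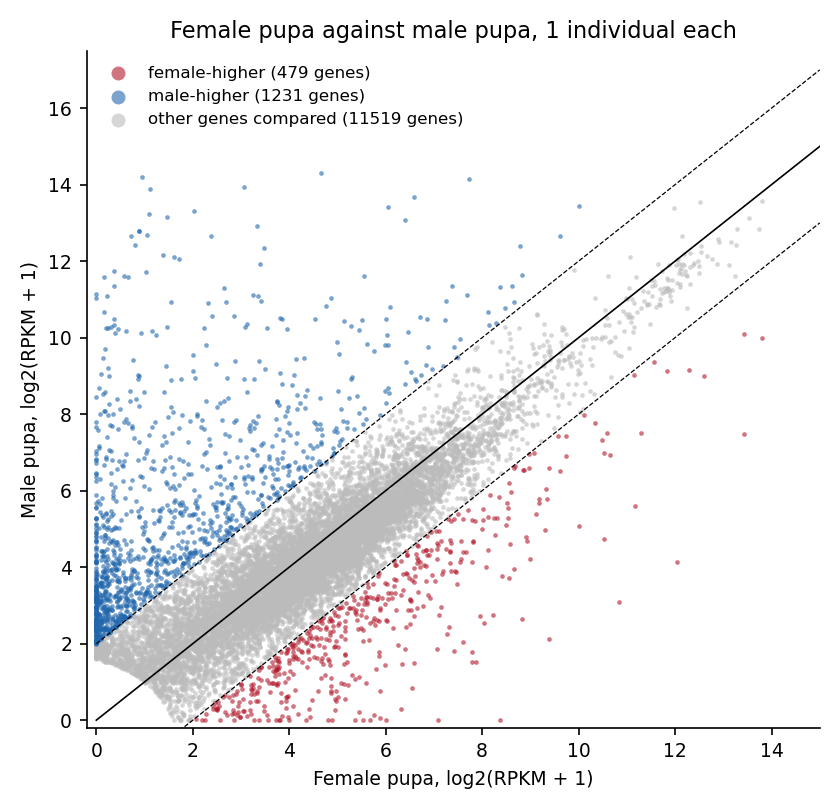
Level of each of the 13229 genes compared in the female pupa (horizontal axis) and the male pupa (vertical axis), both as log2(RPKM + 1), with 1 point per gene. The solid line marks equal levels and the dashed lines a difference of 2; the 1231 male-higher genes (blue) spread over the whole height of the left side, while most of the 479 female-higher genes (red) lie close to their dashed line, 298 of them at a difference of 2 to 3.

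The lists differed in the level of the lower sex. Female-higher genes had a median of 40.3 RPKM in the female pupa and 4.13 RPKM in the male pupa, and 20 of the 479 had 0 reads in the male pupa. Male-higher genes had a median of 0.817 RPKM in the female pupa and 25.2 RPKM in the male pupa, and 182 of the 1231 had 0 reads in the female pupa. Among all 13229 genes compared, those without a read numbered 27 for the male pupa and 228 for the female pupa. The typical female-higher gene thus stayed above 1 RPKM in the male pupa, and the typical male-higher gene lay under it in the female pupa. Both pupae were used to choose the lists, so this contrast follows in part from that choice. On the log2(RPKM + 1) scale, a listed gene at 3 to 10 RPKM in its higher pupa must be low in the other. This range held 63 of the 479 female-higher and 354 of the 1231 male-higher genes. In the sex in which they were higher, the female-higher genes had a median of 766 reads (24 at the fewest) and the male-higher genes a median of 569 (7 at the fewest). Intervals of these reads cover counting error only and say nothing of other individuals.

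The largest difference on the female side belonged to RR48_00906. It had 332 RPKM in the female pupa (2907 reads, exact Poisson 95% interval 320.1 to 344 RPKM). The male pupa had 0 reads, with an upper limit of 0.415 RPKM by the same interval, and 3 reads there would be 0.338 RPKM. With the male pupa set to 3 reads, the female pupa was 983-fold higher. The gene was also expressed in most of the early libraries, at 65.0 RPKM in the egg and at 129.8, 156.8, 138.7 and 703 RPKM from L1 to L4, but had 0 reads in L5. The female adult had 92.4 RPKM and the male adult 0 reads. Both male libraries and L5 were thus without a read, and all other 7 libraries had 65.0 RPKM or more.

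RR48_08858 came next, with a different profile. It had 4182 RPKM in the female pupa and 16.5 RPKM in the male pupa (96237 and 386 reads), a ratio of 253 with an exact 95% counting interval of 228.9 to 280.3. In the early libraries it was low throughout: 5.06 RPKM in the egg and 0.122, 4.32, 0.366, 1.26 and 0.313 RPKM from L1 to L5. In adults the order of the sexes was turned round, with 3.08 RPKM in the female and 27.3 RPKM in the male. Outside the female pupa no library exceeded 27.3 RPKM.

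RR48_02456 had the largest difference on the male side, -13.26 on the log2(RPKM + 1) scale. It had 0.915 RPKM in the female pupa (27 reads) and 18730 RPKM in the male pupa (560898 reads). Among the early libraries it was high in the egg at 990 RPKM, 150.3 in L1 and 5497 in L2, and then low at 43.8 RPKM in L3, 6.38 in L4 and 9.56 in L5. The adults had 51.7 RPKM (female) and 207.7 RPKM (male). L2 was the only early library that came within 4-fold of the male pupa.

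RR48_03096 followed at -12.79. It had 1.15 RPKM in the female pupa (21 reads) and 15217 RPKM in the male pupa. L2 had 3789 RPKM, while the egg and L3 had 0 reads, L1 had 0.0768 RPKM, L4 0.118 and L5 2.99. The adults were low, with 8.02 RPKM in the female and 4.15 RPKM in the male. Its transcripts were abundant in the male pupa and L2, and no other library exceeded 8.02 RPKM.

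These profiles recurred among the genes with the largest differences. In the 10 genes furthest to the male side, the female pupa had 0.111 to 1.76 RPKM and the male pupa 3083 to 18730 RPKM. Of these 10 genes, 9 had L2 as the highest early library, and in L2 their median was 1566 RPKM, beside 18.0 RPKM in the egg and 5.62, 0.176, 0.238 and 2.25 RPKM for L1, L3, L4 and L5. In adults, 6 of them were higher in the female and 4 in the male. The 10 genes furthest to the female side had 78.9 to 4182 RPKM in the female pupa and 0 to 16.5 RPKM in the male pupa. Their medians in the early libraries ran from 5.30 RPKM in L2 to 72.9 RPKM in L1, and L2 was the highest early library for 0 of the 10. In adults, 8 were higher in the female and 2 in the male.

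Genes higher in the female pupa were for the most part genes that eggs and larvae also expressed. At an RPKM of at least 1, the share of the 479 genes expressed was 88.1% in the egg and 85.6%, 84.3%, 85.6%, 87.3% and 77.0% from L1 to L5. All 13229 genes compared gave 88.6%, 86.1%, 89.7%, 88.0%, 89.2% and 80.7% in the same libraries. The female-higher list lay within 1 percentage point of all genes in the egg and L1, and furthest below them in L2. In all, 309 of its genes (64.5%) were expressed in all 6 early libraries, against 74.1% of all genes, and 9 (1.88%) in none of them, against 3.24% of all genes. In the adults as well, 6 of the 479 (1.25%) were under 1 RPKM, against 0.884% of all genes. All genes include the male-higher list. Genes within 2-fold between the pupae gave 82.1% in all 6 early libraries and 1.07% in none.

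Genes higher in the male pupa were far less often expressed in eggs and larvae. The share of the 1231 genes at 1 RPKM or more was 60.8% in the egg and 50.9%, 73.3%, 52.3%, 58.5% and 44.2% from L1 to L5. L2 was the highest of these, and L5 the lowest as it was over all genes. In all 6 early libraries 399 genes (32.4%) were expressed, and in none of them 176 (14.3%). A further 194 genes (15.8%) were expressed in exactly 1 early library, and for 119 of these that library was L2, for 36 L4, for 25 the egg, for 11 L5, for 3 L3 and for 0 L1. Over all genes, 447 (3.38%) were expressed in exactly 1 early library, and for 175 of these it was L2. Of the 176 genes expressed in no early library, 1 reached 1 RPKM in the female adult alone, 130 in the male adult alone, 12 in both adults and 33 in neither. Of the 428 such genes among all genes compared, 233 reached it in the male adult alone.

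Median levels were followed in the same libraries. Female-higher genes had a median of 11.7 RPKM in the egg and of 11.1, 8.23, 15.8, 12.4 and 9.62 RPKM from L1 to L5, against 10.8, 10.0, 11.9, 12.1, 12.2 and 6.97 RPKM for all genes from the egg to L5. Their median lay below that of all genes in L2 and above it in the other early libraries. Male-higher genes had a median of 2.21 RPKM in the egg and of 1.07, 6.89, 1.20, 1.72 and 0.646 RPKM from L1 to L5, below all genes in each early library and highest in L2.

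**Figure D2:**
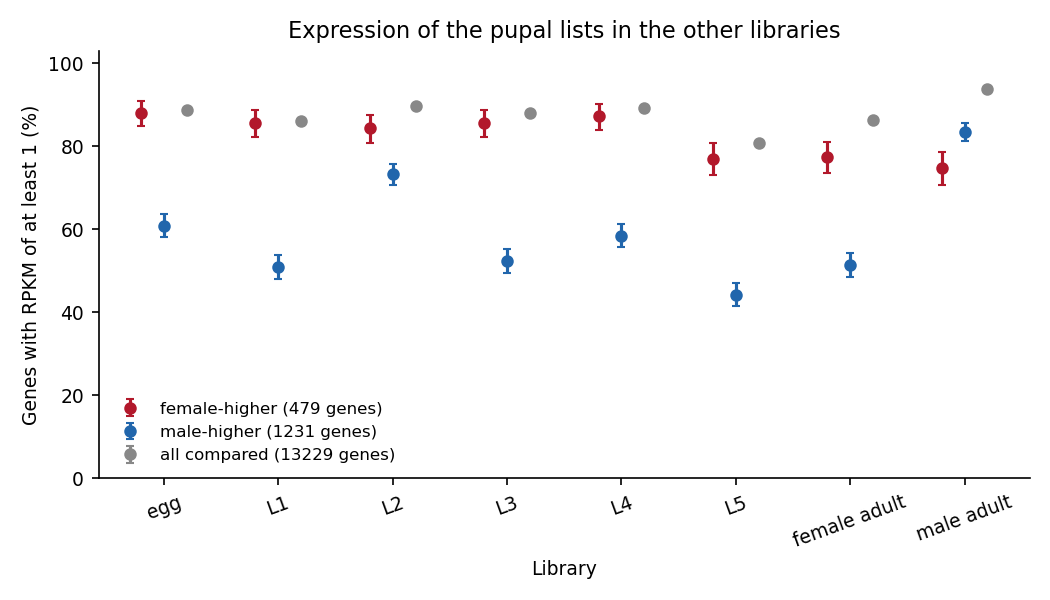
Share of genes with an RPKM of at least 1 in the 8 libraries other than the pupae, for the female-higher genes (red), the male-higher genes (blue) and all genes compared (grey); bars are exact binomial 95% intervals over genes, which are not replicates. The red points stay between 74.7% and 88.1%, while the blue points lie between 44.2% and 60.8% in the early libraries other than L2, at 73.3% in L2 and at 83.5% in the male adult.

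Genes of similar level were then set side by side. For this, genes were binned by the RPKM of the pupa in which they were higher. Between 3 and 10 RPKM, 3 of 63 female-higher genes (4.76%) and 123 of 354 male-higher genes (34.7%) were expressed in no early library, against 6.60% of all 2818 genes in that range. Between 10 and 30 RPKM the shares were 0.709% and 11.0%, against 1.01% of all genes. Between 30 and 100 RPKM they were 2.88% and 4.42%, against 0.559%, so that both lists lay above all genes and close to each other. At 100 RPKM or more they were 0.735% and 2.75%, against 0.721%. The male-higher list lay above all genes in each range, and by most where the male pupa itself was low. The female-higher list lay below all genes at 3 to 30 RPKM, above them at 30 to 100 RPKM and close to them at 100 RPKM or more. All genes include the male-higher list, however, which held 123 of the 186 such genes at 3 to 10 RPKM. Genes within 2-fold between the pupae had 1.01%, 0.0668%, 0.0432% and 0.204% in the same ranges. Both lists lay above these in each range.

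Among the larvae, L2 stood out for the male-higher genes. Of the 1055 male-higher genes expressed in at least 1 early library, 517 (49.0%) had their highest early value in L2, against 17.4% of the female-higher genes and 20.0% of all genes. A gene was taken as raised in L2 where its log2(RPKM + 1) there lay at least 2 above the mean of the other 4 instars. This held for 39 female-higher genes (8.14%) and 401 male-higher genes (32.6%), against 5.71% of all genes. The opposite, L2 at least 4-fold below the other instars, was seen in 88 female-higher genes (18.4%) and 33 male-higher genes (2.68%), against 3.02% of all genes. The next library on this measure was the egg, in which 9.59% of the male-higher genes lay 4-fold above the mean of the instars. The female-higher list was close to this at 8.56%, and all genes had 3.85%. Genes raised in L2 were thus a larger share of the male-higher list than of all genes, and to a lesser degree of the female-higher list as well. Genes lowered in L2 were a larger share of the female-higher list. Genes within 2-fold between the pupae had 2.07% raised and 1.93% lowered in L2.

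On the male side the share of genes raised in L2 grew with the size of the difference. Among 151 genes more than 64-fold higher in the male pupa, 76.2% were raised in L2, and the share was 55.7% at a difference of -6 to -4, 30.5% at -4 to -3 and 13.7% at -3 to -2. On the female side it had no such order, with 6.38% at a difference of 2 to 3, 14.4% at 3 to 4 and 5.71% at 4 or more. Binned by the RPKM of the higher pupa, the share among male-higher genes also rose with level. It was 10.2% at 3 to 10 RPKM, 17.3% at 10 to 30, 42.6% at 30 to 100 and 63.3% at 100 or more. All genes had 3.62%, 3.08%, 5.68% and 16.2% in these ranges. Size of the difference and level were not separated. Over all 13229 genes the pupal difference and the L2 excess had a Pearson correlation of -0.44 and a Spearman correlation of -0.26, which describes these libraries across genes and carries no p. The same correlations for L3 were 0.29 and 0.21, but the mean subtracted from L3 includes L2, so the 2 measures are not independent. Ranked over all genes, the male pupa was about as close to L2 (Spearman 0.72) as to the female pupa (0.73), and its correlation with the egg and the other instars was 0.58 to 0.62. The female pupa had 0.66 with L2 and 0.67 to 0.73 with the egg and the other instars. What L2 and the male pupa share was not tested.

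**Figure D3:**
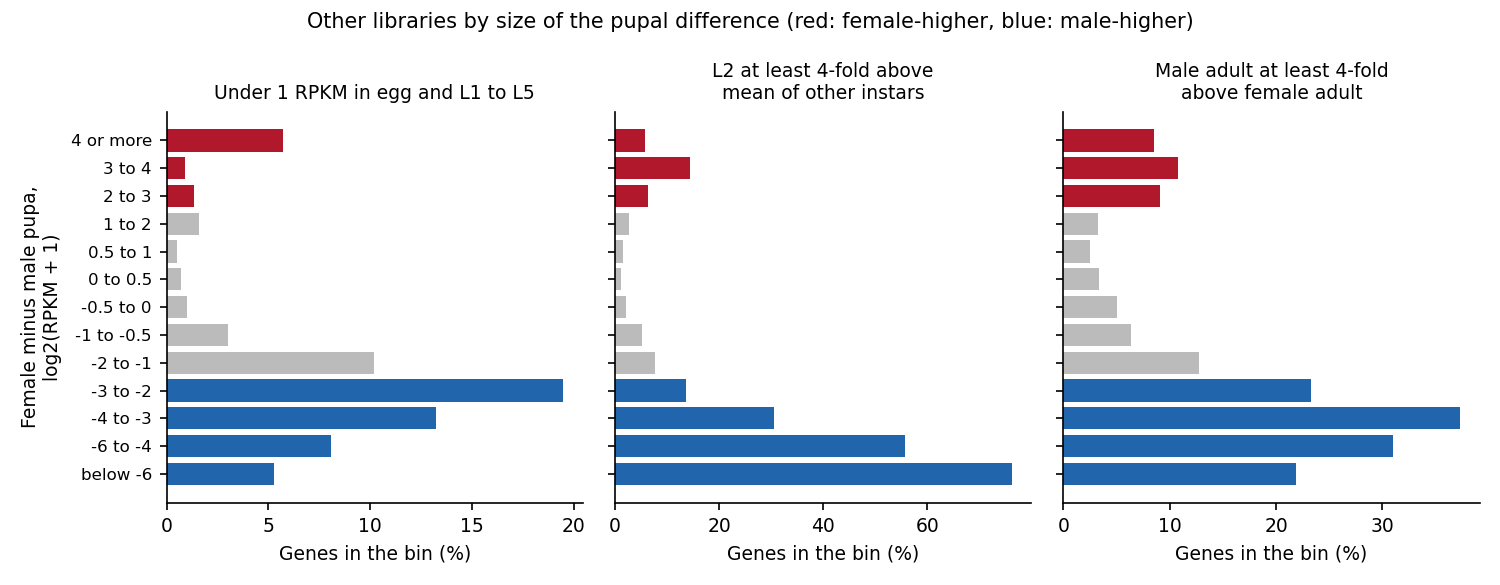
Genes binned by the pupal difference (female minus male, log2(RPKM + 1), vertical axis, 70 to 2909 genes per bin), with the percentage of each bin that was under 1 RPKM in all 6 early libraries (left), raised at least 4-fold in L2 over the other instars (middle) and at least 4-fold higher in the male than in the female adult (right). From a difference of 0.5 downward the middle panel grows with each bin towards the male side, to 76.2%, whereas the left and right panels peak at 19.5% and 37.3% in the bins -3 to -2 and -4 to -3.

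The adults gave a second pair of individuals, which the lists had not used. In the female-higher list, 281 genes (58.7%) were also higher in the female adult, 193 were higher in the male adult and 5 were equal. In the male-higher list, 288 genes were higher in the female adult, 933 (75.8%) in the male adult and 10 were equal. Over all genes compared, 43.8% were higher in the female and 56.0% in the male adult, so each list leaned towards its own sex beyond the whole. At 4-fold, 73 female-higher genes (15.2%) were higher in the female and 45 (9.39%) in the male adult, against 2.33% and 7.12% of all genes. In the male-higher list, 29 genes (2.36%) were 4-fold higher in the female and 342 (27.8%) in the male adult. The median adult difference was 0.27 for the female-higher and -0.93 for the male-higher genes, against -0.13 for all genes. The pupal and adult differences had a Pearson correlation of 0.29 and a Spearman correlation of 0.28 across 13229 genes. Between the adults, 239 female-higher genes (49.9%) and 530 male-higher genes (43.1%) were within 2-fold, against 70.1% of all genes.

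**Figure D4:**
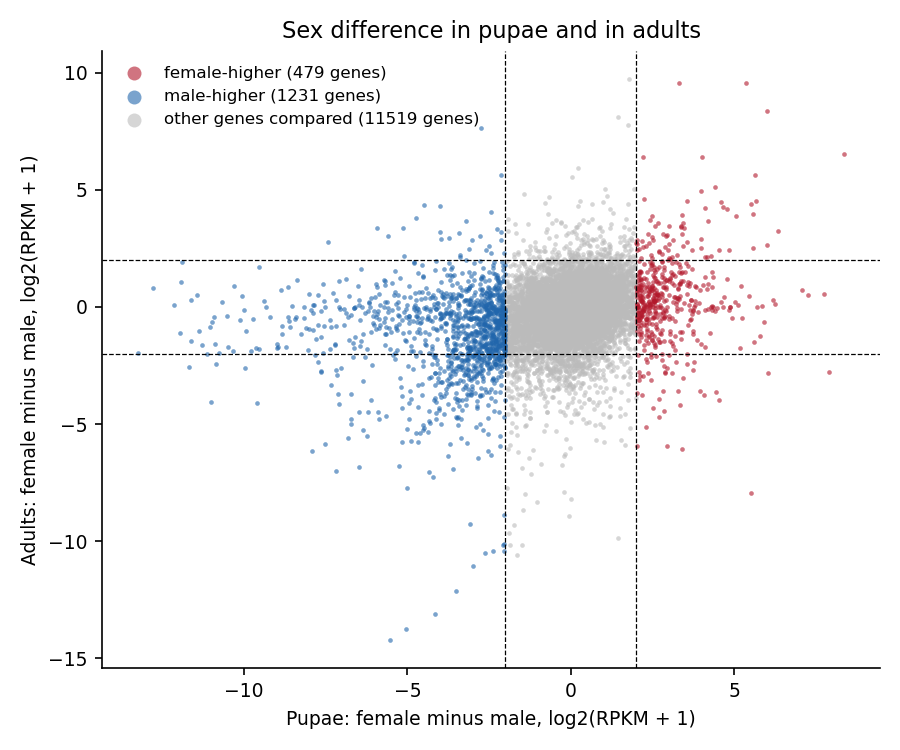
Difference between female and male in pupae (horizontal axis) and in adults (vertical axis), both as log2(RPKM + 1), with 1 point per gene and dashed lines at 2 and -2. Of the blue male-higher genes, 933 of 1231 lie below 0 on the adult axis, and the 151 genes furthest left, below -6, have a median adult difference of -0.80.

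Split by the adults, the male-higher genes differed in the early libraries, and also in their level in the male pupa. The 342 genes that were also 4-fold higher in the male adult had medians of 0.260 RPKM in the female pupa and 16.2 RPKM in the male pupa, and of 0.307 RPKM in the female adult and 15.5 RPKM in the male adult. Of these, 77 (22.5%) were expressed in no early library, 63 (18.4%) in all 6, and 54 (15.8%) were raised in L2. The 530 genes within 2-fold between the adults had medians of 1.45 RPKM in the female pupa and 42.9 RPKM in the male pupa. Of these, 44 (8.30%) were expressed in no early library, 210 (39.6%) in all 6, and 228 (43.0%) were raised in L2. Their median level was 22.4 RPKM in L2 and at most 4.99 RPKM in the other early libraries. Level in the male pupa was not held equal between these 2 classes. Binned by level alone, 17.3% of male-higher genes at 10 to 30 RPKM and 42.6% at 30 to 100 RPKM were raised in L2, close to the shares of the 2 classes. Split by both measures, of the 1231 male-higher genes 54 were both, 347 were raised in L2 only, 288 were 4-fold higher in the male adult only and 542 were neither. Over all 13229 genes compared, 89 were both, 667 were raised in L2 only and 853 were 4-fold higher in the male adult only. The 347 genes raised in L2 only had a median of 108.1 RPKM in the male pupa, and the 288 genes of the male adult only had 12.6 RPKM.

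The female-higher genes were split by the adults in the same way. The 73 genes also 4-fold higher in the female adult had medians of 34.6 RPKM in the female pupa and 2.21 RPKM in the male pupa, and of 29.5 RPKM in the female adult and 1.73 RPKM in the male adult. In the egg, 71 of them (97.3%) were expressed, against 88.6% of all genes, with a median of 26.5 RPKM, and in the instars their median ran from 15.9 RPKM in L2 to 30.6 RPKM in L3. In all 6 early libraries 57 (78.1%) were expressed, close to the 74.1% of all genes, and in none of them 1. The 45 genes that turned round, 4-fold higher in the male adult, had medians of 54.3 RPKM in the female pupa and 4.85 RPKM in the male pupa. Their medians in the adults were 0.785 RPKM (female) and 27.3 RPKM (male), and 38 of the 45 (84.4%) were expressed in the egg. RR48_08858 is one of them, whereas RR48_00906 kept its direction.

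Some genes had no read at all in 1 sex at both stages. There were 12 genes with at least 1 RPKM in the female pupa and female adult and 0 reads in both males. Of these 12, 11 were expressed in the egg and 11, 9, 11, 9 and 10 from L1 to L5, with 5 expressed in all 6 early libraries. The genes missing from an instar were not the same ones: L2, L3 and L5 each had 0 reads for 1 gene and L4 for 2, and the egg and L1 had reads for all 12. The reverse class, with at least 1 RPKM in both males and 0 reads in both females, held 87 genes. In the early libraries 9 of these were expressed in the egg, then 1, 19, 2, 10 and 4 from L1 to L5, and 54 in none. Each early library thus expressed at least 9 of the 12 genes without reads in males, and at most 19 of the 87 without reads in females. Over all genes compared, 80.7% (L5) to 89.7% (L2) were expressed in an early library and 3.24% in none. In single early libraries 9 to 11 of the 12 genes were expressed, near these shares, and the 87 lay far below them. The share expressed in none was higher among the 87 than among all genes. Expression in all 6 early libraries held for 5 of the 12, against 74.1% of all genes. Many of the 87 were low in the male pupa, and of the male-higher genes at 3 to 10 RPKM there, 34.7% were expressed in no early library.

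A small number of genes had a low level in the male pupa that was a similar fraction of a very high level in the male adult. In 15 genes with over 1000 RPKM in the male adult, and at most 0.5% of that in all libraries but the male pupa, the male pupa had 0.158% to 0.296% of the male adult level in 14 and 1.59% in the remaining gene, with a median of 0.230%. The female pupa had 0% to 0.107% of the male adult level in the same genes. Of the 15, 11 are in the male-higher list, and the male pupa had at most 45.6 RPKM. Leaving out all genes whose higher pupa had under 1% of the level in another library removed 6 female-higher and 36 male-higher genes and left 473 and 1195. Of the 36, 14 were highest in the male adult and 13 in L2. Of the 342 male-higher genes that were also 4-fold higher in the male adult, 14 had under 1% of the male adult level in the male pupa, as had 3 of the 87 genes without reads in females. Whether such values are transcripts of the pupa or reads of the male adult library assigned to it was not tested.

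Genes of the same list often carried consecutive locus tags. Where the next tag had also been compared, it was in the same list for 58 of 410 female-higher genes (14.1%) and for 319 of 1042 male-higher genes (30.6%), against 3.34% and 8.90% of all 11716 genes with such a neighbour. The next tag was in the opposite list for 10.0% of female-higher and 3.36% of male-higher genes. Both lay near the shares over all genes, 8.90% with a male-higher and 3.34% with a female-higher next tag. Runs of consecutive tags held 105 female-higher genes (21.9%) in 47 runs and 532 male-higher genes (43.2%) in 213 runs. The longest run had 4 genes on the female side and 9 on the male side. Whether consecutive tags are neighbours in the genome was not tested, and near-identical neighbours may share reads, since the counting of such reads is not given in the sources used here.

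Among the 6 longest male-higher runs, of 6 to 9 genes, 1 was high in the male adult and the other 5 were not: its median there was 63.2 RPKM, and theirs were 0.317 to 1.84 RPKM. In the run of 9 genes, the female pupa had 0.0473 to 9.45 RPKM and the male pupa 5.15 to 9132 RPKM. All 9 genes were high in L2, at 475 to 4455 RPKM, and their medians were 70.1 RPKM in the egg and 16.7, 0.259, 1.00 and 0.612 RPKM for L1, L3, L4 and L5. In the adults none exceeded 6.91 RPKM (female) or 22.5 RPKM (male). In 1 of the 2 runs of 7 genes, the run that was high in the male adult, the female pupa had 0 to 0.657 RPKM and the male pupa 5.96 to 168 RPKM. Here the adults were as far apart, with 0 to 0.528 RPKM in the female and 8.70 to 208.3 RPKM in the male. All 7 were under 1 RPKM in the egg, L1, L3, L4 and L5, and 6 of them lay above it in L2, at up to 23.7 RPKM. The other run of 7 genes had medians of 3.84 RPKM in the female pupa and 198.4 RPKM in the male pupa, and of 280.8 RPKM in L2.

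On the female side there were 2 runs of 4 genes. In 1 of them the female pupa had 98.8 to 366 RPKM and the male pupa 6.70 to 49.7 RPKM. L2 was low, with 0.198 to 5.55 RPKM, while the egg and the other instars had 48.9 RPKM or more for all 4 genes. In adults, 3 of the 4 genes were under 1 RPKM in the female, and all 4 had 9.19 to 73.8 RPKM in the male. The other run was expressed in every library, with 17.1 to 2308 RPKM in the female pupa and 2.04 to 61.6 RPKM in the male pupa, and all 4 genes were higher in the female than in the male adult.

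**Figure D5:**
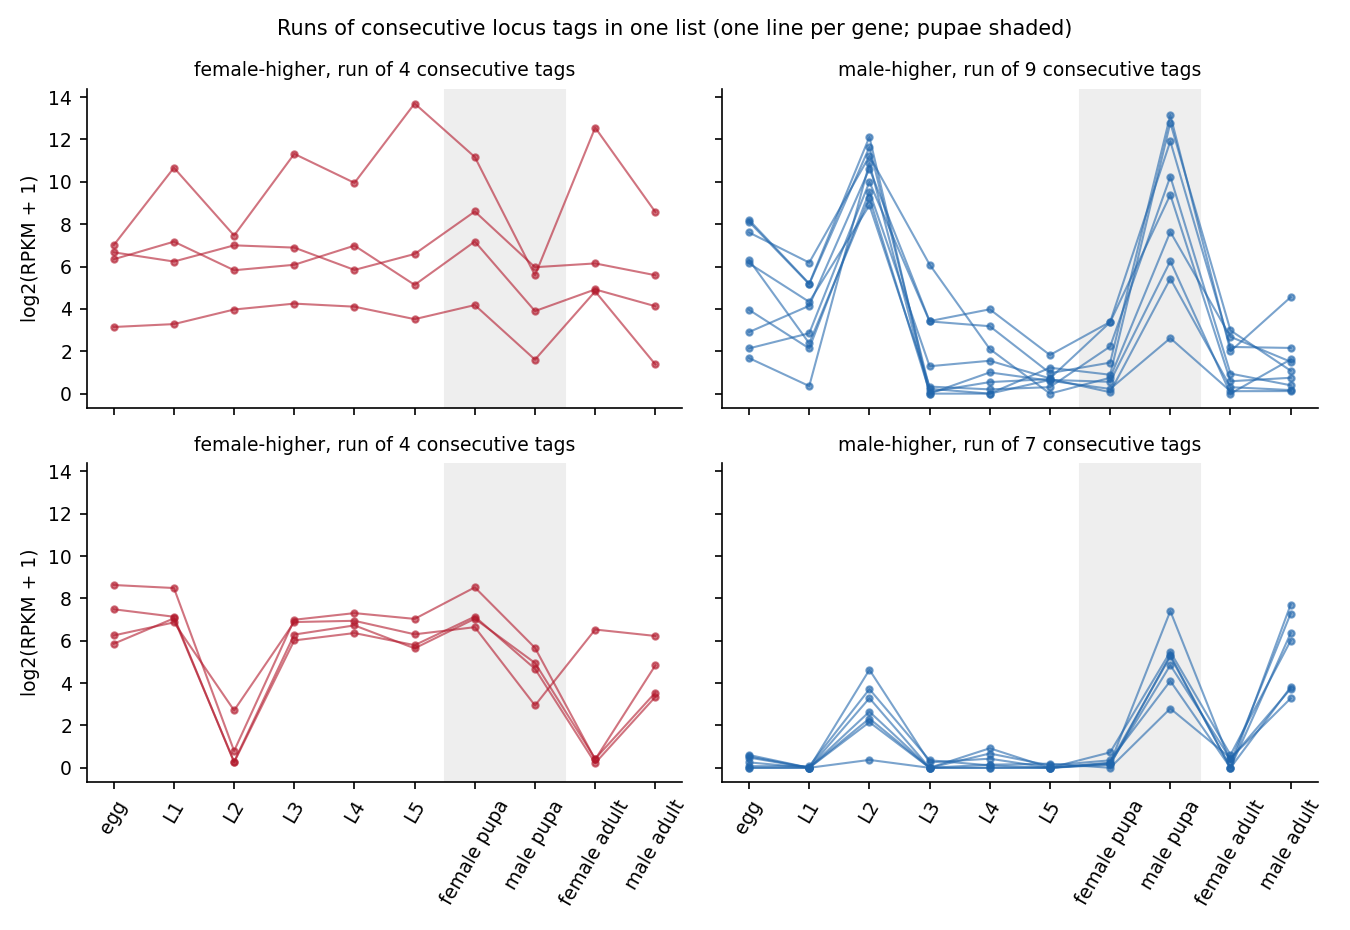
Levels as log2(RPKM + 1) in the 10 libraries (horizontal axis, pupae shaded) of the 2 runs of 4 female-higher genes (red, left) and of runs of 9 and 7 male-higher genes (blue, right), with 1 line per gene. By medians over its genes, the run of 9 is highest in L2 (1575 RPKM) and the male pupa (669.8 RPKM). Its genes differ in this, with as little as 5.15 RPKM in the male pupa and with some higher in the egg than there. The run of 7 is highest by medians in the male pupa and male adult, and 1 of the female-higher runs falls to 0.198 to 5.55 RPKM in L2.

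The male-higher genes took a large part of the measured expression in 2 libraries, the male pupa and L2. The pupae were used to choose the lists, so the contrast between them follows in part from that choice, whereas L2 was not used. The 479 female-higher genes held 11.1% of the summed RPKM in the female pupa and 0.919% in the male pupa. The 1231 male-higher genes held 1.21% in the female pupa and 35.9% in the male pupa. In the other libraries the male-higher genes held 17.0% in the egg, 11.7%, 37.8%, 10.0%, 8.53% and 11.7% from L1 to L5, and 10.9% (female) and 18.6% (male) in the adults. Without the 10 highest genes of the list in each library, a step added after seeing the data, they held 0.781% in the female pupa against 27.6% in the male pupa, 27.4% in L2 and 3.49% to 9.21% in the 7 other libraries. These are shares of the summed RPKM, so a larger share for these genes leaves a smaller one for all others in the male pupa and L2. The sum itself was not equal, at 1094219 in the female pupa and 1248538 in the male pupa. Male over female, the reads on genes had a ratio of 1.19 and the RPKM denominators one of 1.01, so RPKM does not even out this excess.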

How the data were processed

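Poly-A+ RNA of whole animals was sequenced with paired ends on an Illumina HiSeq. RPKM values of 15285 genes were deposited by the authors in 1 table, as made from reads mapped to their own assembly. The submitters' processing notes name TopHat 1.0.12 and 1.4.1, and the counting tool is not given in the sources used here. Each of the 10 columns was matched to a library by name, and 0 columns were left over.

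Pupae were compared by the difference of log2(RPKM + 1), which understates the change of low genes, with a minimum mean RPKM of 1 and a threshold of 4-fold. Expressed means an RPKM of at least 1. Reads were recovered as whole multiples of the smallest step of each gene, within 1e-05 of a whole number, after the libraries were brought to 1 denominator by their commonest ratio. Genes with few reads can come out too small by a whole factor. The code was checked on simulated data. Intervals are exact Poisson or binomial at 95% and cover counting error only. The alternatives were other pseudocounts, scalings, filters, folds and thresholds. The genes named are the 2 with the largest difference in each direction. The members and lists were chosen with earlier results of these data known. Lists of marker genes by product name were not used, since no tag could be named. Python 3.11.15 with numpy 2.4.6, pandas 2.3.3, scipy 1.17.1 and matplotlib 3.10.9 was used.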

Additional observations from a re-analysis of the deposited data

Results flagged for a closer look

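The 5 instars were searched for a library far from the others in 8 measures of the lists, by the gap to the nearest instar over the range, with a critical value of 0.71. The instars are stages and not replicates, and chance flags about 1 in 20 groups. L2 stood apart in the share of summed RPKM on male-higher genes, with 37.8% against 11.7% in the nearest instar, and also without the 10 highest genes of the list, with 27.4% against 3.99%. L5 had the lowest share of female-higher genes expressed, 77.0% against 84.3% in L2, with a gap of 0.714 of the range, just past the critical value. It was also the lowest instar over all genes compared, at 80.7%, and had the fewest reads on genes of all libraries.

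The sex difference of 2 named genes had opposite signs in pupae and adults, with 1 individual per sex and stage and without a test of the difference. RR48_08858 differed by 7.90 in pupae and by -2.79 in adults. RR48_03096 differed by -12.79 in pupae and by 0.81 in adults, where it was at 8.02 RPKM in the female and 4.15 RPKM in the male.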

How the results depend on the processing

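No paired analysis was possible because each sex and stage is 1 library. The female-higher and male-higher lists held 479 and 1231 genes, 1710 together, and 1939 and 2466 (4405) at 2-fold and 181 and 656 (837) at 8-fold. With a pseudocount of 0.1, other scalings, no filter, a mean RPKM of at least 5, at least 30 reads, or without genes under 1% of another library, the counts stayed within 1.5 times and the male-higher list stayed the larger.

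The share of male-higher genes expressed in none of egg and larvae (14.3%) was 12.2% at 2-fold, 9.76% at 8-fold, 17.4% with a pseudocount of 0.1, 17.1% with a common sum of RPKM, 6.15% with a mean RPKM of at least 5, 7.47% and 35.7% with expression set at 0.5 and 5 RPKM, 24.0% without L2, and 21.2% without genes raised in L2. For female-higher genes (1.88%) it was 13.6% with expression set at 5 RPKM, and 1.04% to 3.13% under the other alternatives. Averaged over the early libraries, 84.7% of female-higher genes were expressed, and 90.6% at 2-fold, 89.2% at 0.5 RPKM and 64.4% at 5 RPKM. For male-higher genes the average of 56.7% became 64.7% at 2-fold, 65.7% and 36.3% at 0.5 and 5 RPKM, 66.7% with a mean RPKM of at least 5, 53.6% with a pseudocount of 0.1, 53.2% with a common sum and 53.4% without L2. The same direction in adults was seen in 63.5% of female-higher genes at 8-fold, and in 72.0% of male-higher genes at 2-fold, 71.7% with a mean RPKM of at least 5 and 79.3% without genes raised in L2. The male-higher list was below the female-higher list in average early expression under each of these alternatives. Depth limits the genes with few reads: 1 female-higher and 14 male-higher genes had under 30 in their higher sex.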
